A study of Danio rerio with 6 samples.

Results

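Ion channel subunits are the proteins that let ions cross membranes, together with the auxiliary proteins that assemble with them. On a gene expression array of the zebrafish (Danio rerio) olfactory rosette, they were taken as the probes whose annotated gene symbol starts with a channel name: kcn, cacn, scn, trp, clcn, hcn, otop, p2rx, gria, grin, grik, glra, gabr, chrn, asic or ano, with a digit or subfamily letter where the pattern asks for one. The pattern found 29 probes for 29 genes, 1 probe each, out of 5356 genes with 1 accepted symbol, and none of them for grik, asic or ano. No measured value was used to choose them. Many probes carry no symbol, so other channel genes may lie among those. Of the 29 genes, 3 are not channel subunits in the strict sense. trpc4apa and trpc4apb share the start of a channel name but encode proteins that associate with a TRP channel, and clcn7 encodes a lysosomal chloride and proton exchanger of the chloride channel family. Each of the 29 is described here.

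The rosettes, the paired nasal organs, came from adult fish of 1 to 2 years and mixed sex. There were 6 samples: 3 of wild-type siblings and 3 of homozygous Rag1 mutants. Rag1 is needed by lymphocytes to join the gene segments of their antigen receptors. Each was hybridised to 1 array in 1 colour, and no treatment was given. The labels name no allele and no number of fish per sample. Whether the samples are separate animals is therefore unknown, and each p-value reflects spread between arrays that may be purely technical. A source field of mutant array 2 reads wild type, while its title and strain field give the mutant, and it was kept as a mutant.

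In olfactory sensory neurons, odorant receptors raise cyclic AMP, which opens cyclic nucleotide-gated channels, and the resulting current drives action potentials through voltage-gated sodium and potassium channels. Calcium entering through calcium channels then triggers transmitter release at the axon terminal, while ligand-gated channels receive signals at synapses and from damaged cells. The rosette also holds supporting, basal, immune and ciliated cells with channels of their own. In RNA of a whole organ, fewer cells of a type and less RNA per cell cannot be told apart.

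Values on single arrays are listed in the order of arrays 1 to 3 of each group. Brightness is given on the log2 scale after background correction and normalization, and a level is also given as the raw brightness over the 95th percentile of the blank spots of the same array. A level of 1 on that second scale is therefore the edge of the background. Levels of different probes were not ranked, since probes bind with different strength. Median brightness of gene spots was 4.75 to 7.21 times that of blank spots, lowest on wild-type array 1. Arrays of different groups correlated at 0.964 to 0.974 across probes, and arrays of one group at 0.982 to 0.988. The rag1 probe read 6.48, 6.71 and 6.64 in wild type and 6.68, 6.74 and 11.92 in the mutants. The last reading comes from a spot whose pixel SD was 3.18 times its mean, and the others lie near the blank spots, so the probe does not check the labels. No ion channel probe was saturated on any array.

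Most ion channel probes gave weak but detectable signals. Of the 28 read on all 6 arrays, 22 (78.6%) exceeded the blank spots on every array, against 95.4% of the 15885 probes of the array. gria2b, grin1a, grin1b, glra3 and glra4b fell short on wild-type array 1 alone. That array had the lowest share of all probes above the blank spots (96.3%, against 98.72% to 99.53% on the others). The median level over the arrays was at least 5 times the edge of the background for 5 of the 29, between 1.5 and 5 times for 13, and below 1.5 times for 11. Those at 5 times or more were otop1, kcnk6, p2rx4a, trpm7 and clcn7. The 11 faint ones were all the AMPA, NMDA and glycine receptor genes together with p2rx3a, cacng1a and kcnd3.

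**Figure D1:**
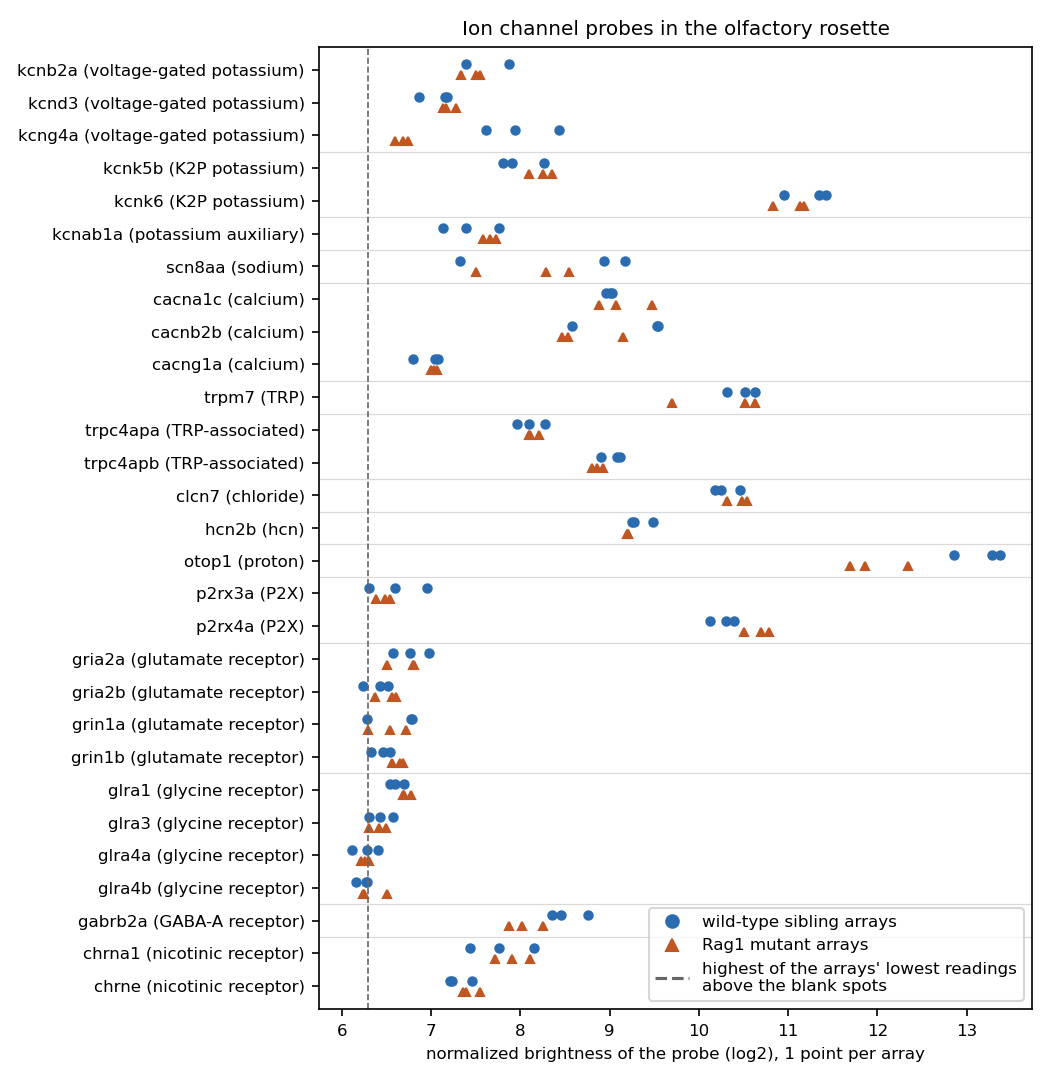
Normalized brightness of the 29 ion channel probes on the log2 scale, with 1 point per array, circles for the 3 wild-type arrays and triangles for the 3 mutant arrays, ordered by role. The dashed line at 6.29 is the highest of the 6 arrays' lowest readings above the blank spots. The triangles of kcng4a, otop1, gabrb2a and hcn2b lie left of all circles, and those of p2rx4a and grin1b lie right of them. The glutamate and glycine receptor points crowd around the dashed line, and kcnb2a has no point for wild-type array 2.

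Mutants were compared with siblings. Of 27 probes tested, 2 fell in the mutants and 0 rose by limma with Benjamini-Hochberg adjustment over all 15611 probes tested. Those were kcng4a, a modifier subunit of potassium channels, and otop1, a proton channel. The share of 7.41% compares with 4.79% of all probes tested, with 2.36% of all lower and 2.43% higher. Before adjustment, p was under 0.05 for 4 of the 27 (14.8%), 3 lower and 1 higher, and for 21.0% of all probes. The median log2 difference was 0.03 over the 27 and 0.01 over all probes, with 13 of the 27 and 48.6% of all probes below 0. The groups did not overlap in 6 of the 27 (22.2%), 4 lower and 2 higher in the mutants, where 25.7% of all probes did not overlap. Among those higher, grin1b entered the test only through the mutant arrays. The same holds for gria2b (0.13) and glra4b (0.09), which read higher in the mutants, and for grin1a (-0.09) and glra3 (-0.03), which read lower. With the filter on all 6 arrays, which removes these probes, the median was -0.02 over 22 probes. As a list the channels thus lay near the background on each of these counts.

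**Figure D2:**
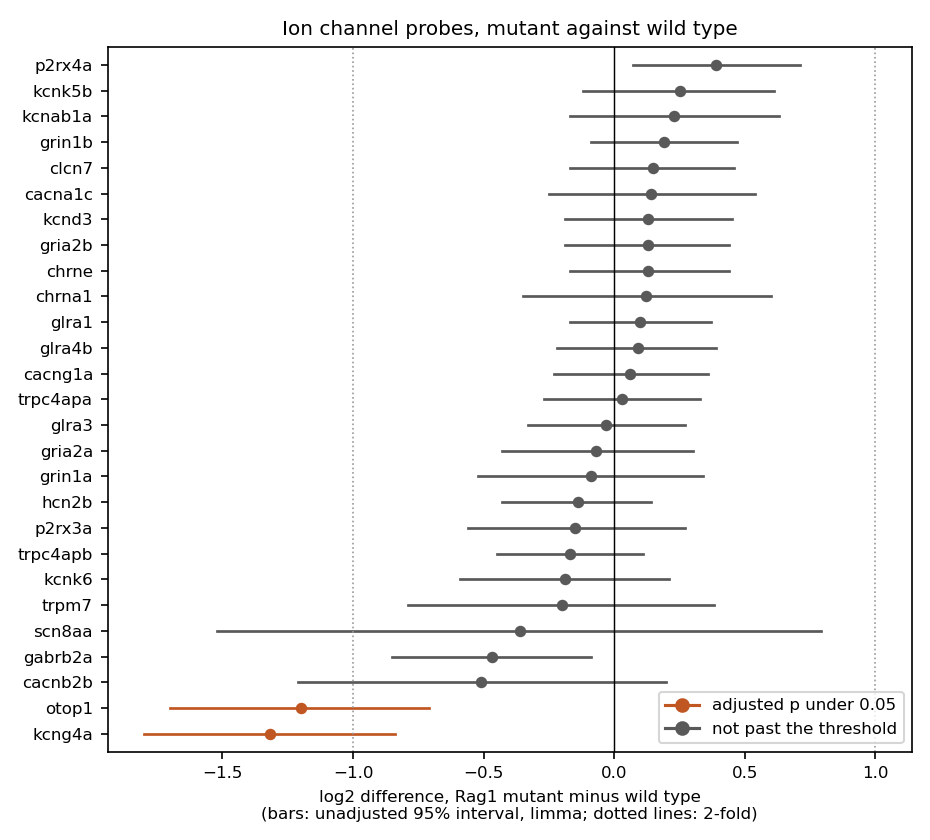
Log2 difference between mutant and wild-type arrays for the 27 tested ion channel probes, with the unadjusted 95% interval of limma as bars and dotted lines at a 2-fold change. The intervals of kcng4a, otop1 and gabrb2a lie wholly below 0 and that of p2rx4a wholly above 0. The widest interval is that of scn8aa, from -1.52 to 0.79.

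kcng4a encodes a voltage-gated potassium channel subunit that, in mammals, forms no channel by itself and joins subunits of the kcnb group. Its probe read 7.94, 8.43 and 7.61 in the wild-type samples and 6.59, 6.68 and 6.74 in the mutant samples. Every mutant array was below every wild-type array. The SD was 0.41 in wild type and 0.08 in the mutants, whose readings lay near the blank spots, where the added offset compresses differences. The log2 difference was -1.32 (SE 0.21, n = 3 per group, limma adjusted p = 0.0165), or 2.5-fold lower. In raw brightness the wild-type arrays stood at 1.84 to 2.65 times the edge of the background and the mutant arrays at 1.12 to 1.21 times. The mutant signal therefore lay just above the blank spots, and the size of the fall depends on the background treatment: it was -0.74 with no background correction and -1.69 with a smaller offset. The call ended without mutant array 1 (adjusted p = 0.065), mutant array 3 (0.0567) or both arrays numbered 2 (0.0983).

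otop1 encodes an otopetrin, a proton channel that zebrafish need to form the otoliths of the inner ear and that serves sour taste in mice. Its probe read 13.28, 12.86 and 13.37 in the wild-type samples and 11.86, 12.34 and 11.69 in the mutant samples. The groups were apart, with the lowest wild-type array above the highest mutant array. The log2 difference was -1.20 (SE 0.21, n = 3 per group, limma adjusted p = 0.0254), or 2.3-fold lower. This probe was far above the background, at 49.0 to 88.8 times its edge in wild type and 20.5 to 32.9 times in the mutants, and the difference was -1.21 with the smaller offset, -1.18 with no background correction and -1.24 with median scaling. Leaving out 1 array ended the call for wild-type array 1 (adjusted p = 0.0617), wild-type array 3 (0.0853), mutant array 1 (0.0925) and mutant array 3 (0.0777), with differences of -1.15, -1.11, -1.15 and -1.06.

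**Figure D3:**
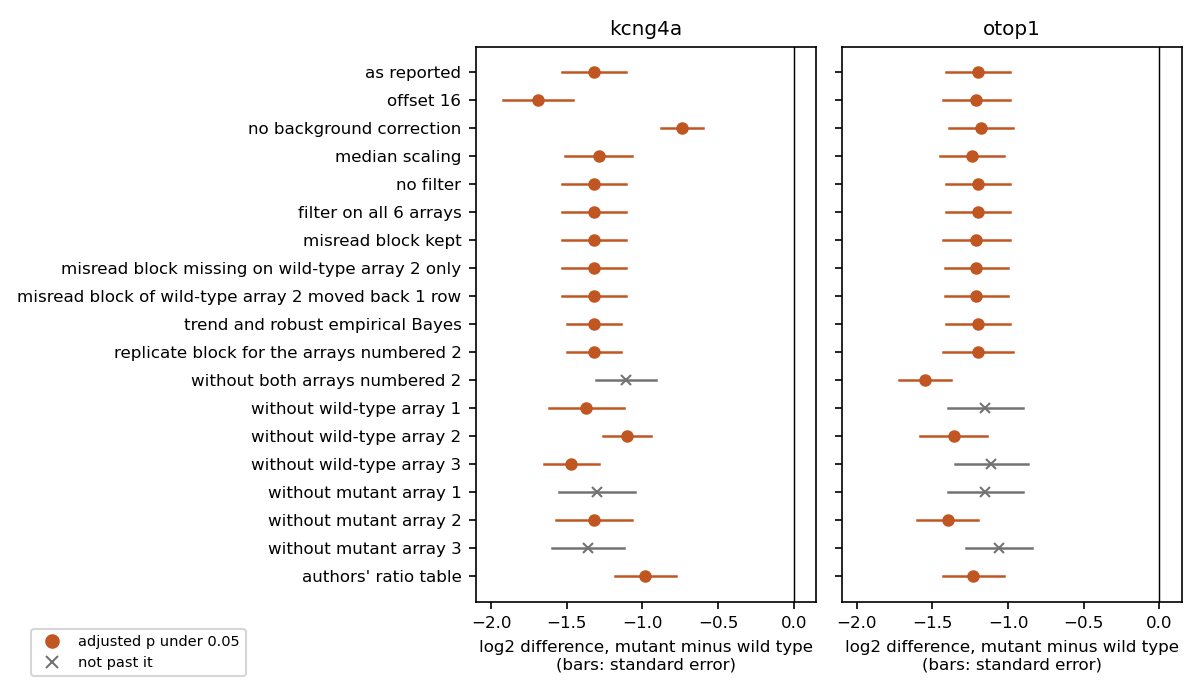
Log2 difference of kcng4a and otop1 as reported and under each of 18 alternatives, with the standard error as bars, filled circles where the adjusted p was under 0.05 and crosses where it was not. All points lie below 0; kcng4a spans -1.69 to -0.74 and otop1 spans -1.55 to -1.06.

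Markers of some cell types also differed between the groups. Of 8 olfactory sensory neuron genes on the array, 4 fell (cnga2, sypa, gng13b and cplx2a), and the median log2 difference of the list was -0.87. The summed brightness was 72400 to 88000 in wild type and 39200 to 51000 in the mutants, most of it from gng13b (-0.69). The rest of the list ranged from -1.05 (sypb) to -0.0 (gap43) and did not pass limma's adjusted threshold. Of 7 macrophage genes 5 rose, by 0.95 to 2.13, and the median of the list was 1.05. Its summed brightness was 125000 to 136000 in wild type and 147000 to 154000 in the mutants, but most of it came from cd74a, saturated on 4 of 6 arrays, and cd74b, close to the upper end of the scale. Without these the sum was 6720 to 9200 in wild type and 17600 to 22800 in the mutants, a choice made after seeing the values. Of 6 neutrophil genes 4 rose, with a list median of 1.69 and a sum of 11000 to 16000 in wild type and 17600 to 35300 in the mutants. nccrp1, which held most of the wild-type sum, lay the other way without overlap (-0.71, limma adjusted p = 0.105). Without it the sums were 4180 to 6580 in wild type and 11300 to 30400 in the mutants, again a choice made after seeing the values. Of 5 red blood cell genes 1 rose, with a median of 1.19 and sums of 15600 to 21100 in wild type and 26400 to 67500 in the mutants. Among 12 surface epithelium probes 2 fell, both of pkp1b. epcam, a marker of epithelial cells, was at 0.03, but its readings of 15.65 to 15.94 were also close to the upper end of the scale. The summed range of the mutants, 185000 to 187000, includes epcam and lay within that of the wild type. Of 6 glia, 2 motile cilia, 2 ionocyte and 3 endothelium probes 0 passed limma's adjusted threshold, with medians of 0.32, -0.08, 0.54 and 0.10; 4, 0, 1 and 1 had an unadjusted p under 0.05. No marker of these lists was at the blank level on all arrays. The part of these cell types in the falls of kcng4a and otop1 was not tested.

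The other voltage-gated potassium channel genes showed small differences. kcnb2a encodes a pore-forming subunit of the delayed rectifier group, the group that kcng4a-type subunits join. Its spot lies in a print block that was read 1 row off on wild-type array 2, so it was outside the main comparison. It read 7.87 and 7.39 on wild-type arrays 1 and 3 and 7.55, 7.50 and 7.33 on mutant arrays 1 to 3, and the groups overlapped. With wild-type array 2 treated as missing the difference was -0.17 (SE 0.19, interval -0.62 to 0.28, limma adjusted p = 0.694). Moving the block back by 1 row recovered a reading of 7.42 on that array and a difference of -0.10 (SE 0.16, limma adjusted p = 0.802), while the spot as misread gave -0.91.

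kcnd3, a subunit of rapidly inactivating potassium channels, read 7.18, 7.15 and 6.86 in wild type and 7.28, 7.17 and 7.13 in the mutants, a difference of 0.13 (SE 0.14). kcnab1a encodes a cytoplasmic auxiliary subunit and read 7.13, 7.39 and 7.76 in wild type and 7.58, 7.66 and 7.73 in the mutants (0.23, SE 0.17). In both the groups overlapped.

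Tandem-pore potassium channels carry the leak current that sets the resting potential. kcnk6 read 11.42, 11.35 and 10.95 in wild type and 11.13, 10.83 and 11.18 in the mutants, at 12 to 17.2 times the edge of the background. Its difference was -0.19 (SE 0.17, interval -0.59 to 0.21). kcnk5b, whose overactive alleles lengthen zebrafish fins, read 8.26, 7.91 and 7.80 in wild type and 8.35, 8.25 and 8.10 in the mutants (0.25, SE 0.16, interval -0.12 to 0.61). Neither interval reached a 2-fold change, and in both genes the groups overlapped.

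The sodium channel gene scn8aa, a pore-forming subunit that supports repetitive firing, varied more than any other tested ion channel probe. It read 8.94, 9.17 and 7.32 in the wild-type samples and 8.54, 8.29 and 7.50 in the mutant samples. The low reading of each group was on its array 3, and the SD was 1.01 in wild type and 0.55 in the mutants. The difference of -0.36 (SE 0.49, limma adjusted p = 0.754) became -0.93 when wild-type array 3 was left out and -0.06 when mutant array 3 was, and it passed under no alternative. The pooled SD within groups was 0.811, against a median of 0.190 over the 27 probes and of 0.205 over all probes tested. It exceeded 0.3 in 3 others, cacnb2b (0.475), trpm7 (0.379) and otop1 (0.308).

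Calcium channels were represented by 1 pore-forming and 2 auxiliary subunits. cacna1c, the pore-forming subunit of a long-lasting calcium current and needed for the zebrafish heartbeat, read 9.03, 9.0 and 8.96 in wild type and 9.07, 9.47 and 8.88 in the mutants. The wild-type arrays lay within the range of the mutants, and the difference was 0.14 (SE 0.17). cacnb2b, a beta subunit that carries the pore to the cell surface, read 8.58, 9.53 and 9.54 in wild type and 8.46, 9.15 and 8.53 in the mutants. Wild-type array 1 lay near the low mutant arrays, and the difference of -0.51 (SE 0.30, limma adjusted p = 0.408) was -0.83 without that array and passed under no alternative. cacng1a, a gamma subunit of the skeletal muscle channel, read 7.07, 7.04 and 6.80 in wild type and 7.03, 7.0 and 7.06 in the mutants, at 1.29 to 1.40 times the edge of the background (0.06, SE 0.13).

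trpm7, a cation channel fused to a kinase that takes part in magnesium balance, read 10.63, 10.52 and 10.31 in wild type and 10.63, 10.52 and 9.70 in the mutants. Mutant array 3 alone was low, and the difference of -0.20 (SE 0.25) became 0.09 without it. trpc4apa read 8.10, 8.27 and 7.96 in wild type and 8.10, 8.11 and 8.21 in the mutants (0.03, SE 0.13). Its duplicate trpc4apb read 8.90, 9.11 and 9.08, and 8.86, 8.92 and 8.80 (-0.17, SE 0.12), and both overlapped between the groups. clcn7 read 10.25, 10.46 and 10.18 in wild type and 10.54, 10.32 and 10.48 in the mutants (0.15, SE 0.13, interval -0.17 to 0.46).

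The pacemaker channel gene hcn2b, which encodes a subunit opened by hyperpolarization and cyclic nucleotides, read 9.27, 9.25 and 9.49 in wild type and 9.19, 9.20 and 9.20 in the mutants. The groups did not overlap, yet the difference was only -0.14 (SE 0.12, limma adjusted p = 0.578).

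P2X receptors are cation channels opened by extracellular ATP. p2rx4a, known from macrophages and microglia of mammals, read 10.30, 10.12 and 10.39 in wild type and 10.70, 10.78 and 10.50 in the mutants. The mutant arrays were all above the wild-type arrays, by 0.39 (SE 0.14, interval 0.07 to 0.71), and limma's unadjusted p of 0.0223 became an adjusted p = 0.155. The macrophage list was higher in the same samples, as given above, and its part in the p2rx4a readings was not tested. p2rx3a, a receptor of sensory neurons, read 6.95, 6.59 and 6.30 in wild type and 6.48, 6.38 and 6.54 in the mutants, at 1.05 to 1.25 times the edge of the background. Its difference was -0.15 (SE 0.18), and the interval ran from -0.56 to 0.27.

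Glutamate-gated channels gave readings at the edge of detection. The gria2 genes encode the AMPA receptor subunit that limits calcium entry, and the grin1 genes the subunit that every NMDA receptor holds. gria2a read 6.57, 6.98 and 6.76 in wild type and 6.50, 6.80 and 6.81 in the mutants, while its duplicate gria2b read 6.23, 6.51 and 6.42, and 6.37, 6.61 and 6.56. grin1a read 6.28, 6.77 and 6.78, and 6.54, 6.29 and 6.72. grin1b read 6.33, 6.54 and 6.46, and 6.68, 6.65 and 6.56. Its groups did not overlap, but only by 6.54 against 6.56. This probe passed the filter only through the mutant arrays, the group in which it read higher, so the gap carries no weight. Differences of the 4 probes ran from -0.09 to 0.19 with limma adjusted p of 0.439 to 0.870. gria2b, grin1a and grin1b were below the blank spots' percentile on wild-type array 1, and the 4 probes reached at most 1.34 times the edge of the background on any array.

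Glycine receptor subunits, which form inhibitory chloride channels, also lay at the edge of detection. glra1 read 6.54, 6.59 and 6.70 in wild type and 6.77, 6.69 and 6.68 in the mutants and was above the blank spots on all arrays. glra3 (6.30, 6.57 and 6.43, and 6.41, 6.49 and 6.30) and glra4b (6.16, 6.28 and 6.27, and 6.50, 6.25 and 6.23) were below them on wild-type array 1. glra4a was below them on wild-type arrays 1 and 2 and mutant array 3 and was not tested. It read 6.28, 6.11 and 6.40 in wild type and 6.26, 6.30 and 6.21 in the mutants. The 3 tested probes differed by -0.03 to 0.10, and all 4 probes lay between 0.95 and 1.28 times the edge of the background.

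The GABA-A receptor gene gabrb2a, a beta subunit of inhibitory chloride channels, lay at 1.99 to 3.21 times the edge of the background. It read 8.45, 8.76 and 8.35 in wild type and 8.25, 7.87 and 8.02 in the mutants. All mutant arrays were below all wild-type arrays, and the difference was -0.47 (SE 0.16, interval -0.85 to -0.09, unadjusted p = 0.0214, limma adjusted p = 0.152). Over the alternatives the difference ran from -0.57 to -0.26 and the adjusted p from 0.147 to 0.599. A list of genes named central neurons was also read, though its genes need not mark such cells in the rosette. Of its 8 probes, 0 passed limma's adjusted threshold and 3 had an unadjusted p under 0.05. They had a median difference of -0.04 and a summed brightness of 9350 to 11300 in wild type and 6410 to 9190 in the mutants. Most of that sum came from snap25a (-0.52) and elavl4 (-0.46), while the gad2 probes were at 0.69 and -0.27. The olfactory sensory neuron list had a median of -0.87. The part of the cells behind either list in the gabrb2a readings was not tested.

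The nicotinic receptor genes chrna1 and chrne encode subunits of the acetylcholine receptor of the neuromuscular junction. chrna1 read 8.15, 7.43 and 7.76 in wild type and 7.90, 8.11 and 7.71 in the mutants (0.12, SE 0.21). chrne read 7.46, 7.21 and 7.23 in wild type and 7.36, 7.39 and 7.55 in the mutants (0.13, SE 0.13). Their groups overlapped, as did those of cacng1a, the muscle calcium channel subunit. Of 11 skeletal muscle probes tested 0 passed limma's adjusted threshold (0 at an unadjusted p under 0.05), with a median of 0.02. All 11 exceeded the blank spots on all 6 arrays, while the untested probe of the muscle calcium pump gene atp2a1 did so on only 3. Several of them did so only narrowly, such as actn3a at 6.42 to 6.72 and myhz2 at 6.47 to 6.75. There the added offset compresses differences.

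The intervals show how precisely each difference was measured between these arrays. They rest on spread between arrays that may be purely technical, so they do not bound a difference between animals. The unadjusted 95% interval lay within a 2-fold change either way for 23 of the 27 tested probes and within 0.5 on the log2 scale for 13. Beyond the 2-fold bound it reached for kcng4a, otop1, cacnb2b and scn8aa. For probes near the blank spots the added offset compresses differences, and the intervals with them.

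Genes of other channels, and of families with members that work with channels, were followed through a list chosen by symbol, called partners here. It included cyclic nucleotide-gated channels, intracellular chloride channel proteins, calmodulins, mitochondrial pores, pannexins, and scaffold and escort families. Membership was by symbol alone, so a listed gene need not act on a channel. Of 36 probes (33 genes) tested, 3 rose and 3 fell by limma's adjusted p (16.7%, against 4.79% of all probes tested), and the median difference was -0.15 with 24 of 36 below 0. Over all probes tested the median was 0.01, and 48.6% were below 0. The list was chosen with earlier results of these data known, cnga2 among them. Leaving out wild-type array 1, 2 or 3 left 3, 1 or 2 calls, leaving out mutant array 1, 2 or 3 left 1, 3 or 2, and leaving out both arrays numbered 2 left 0.

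**Figure D4:**
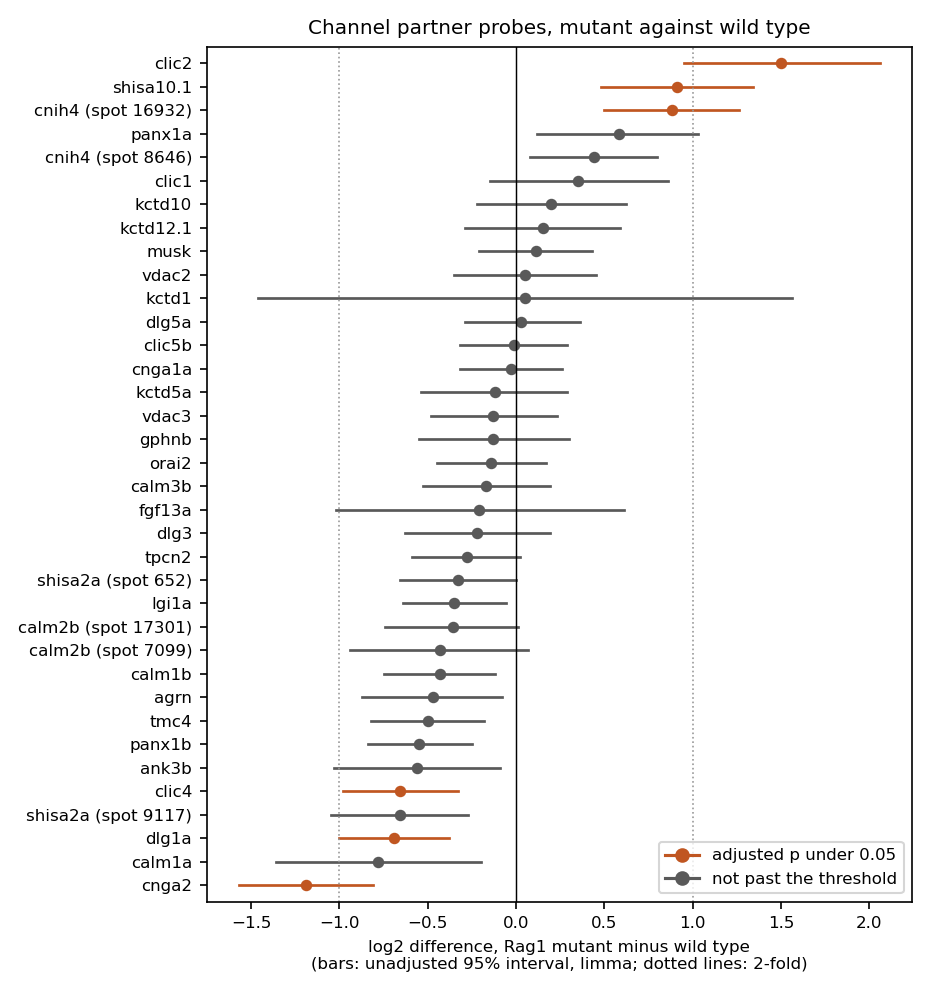
Log2 difference between mutant and wild-type arrays for the 36 channel partner probes, with the unadjusted 95% interval of limma as bars and dotted lines at a 2-fold change. clic2 at 1.5 and cnga2 at -1.19 are the outermost points of the 6 that passed, and kctd1 has the widest interval.

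Among the partners that fell were genes for a subunit of the transduction channel and for a scaffold. cnga2, a subunit of the olfactory cyclic nucleotide-gated channel, read 12.86, 12.94 and 12.97 in wild type and 11.43, 11.77 and 11.99 in the mutants (-1.19, SE 0.16, limma adjusted p = 0.0109). dlg1a, a membrane scaffold that binds channels and receptors, read 11.44, 11.38 and 11.49 in wild type and 10.55, 10.89 and 10.79 in the mutants (-0.69, SE 0.13, limma adjusted p = 0.0319). clic4, of the chloride intracellular channel family, read 13.41, 13.78 and 13.55 in wild type and 12.87, 12.87 and 13.02 in the mutants (-0.66, SE 0.14, limma adjusted p = 0.0425). Groups did not overlap in any of them. The calls of dlg1a and clic4 each ended under 5 of the 6 omissions of 1 array, and that of cnga2 under none.

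The partners that rose included clic2, another chloride intracellular channel family gene. It read 12.22, 11.58 and 11.48 in wild type and 13.50, 12.92 and 13.36 in the mutants (1.5, SE 0.24, limma adjusted p = 0.0169), and its call ended under 4 of the 6 omissions of 1 array. clic4 and clic2 thus moved in opposite directions, while clic1 was at 0.35 (limma adjusted p = 0.421) and clic5b at -0.01. The clic5b probe lay at 1.07 to 1.25 times the edge of the background, where the added offset compresses differences. shisa10.1 read 12.75, 13.06 and 13.40 in wild type and 13.89, 13.90 and 14.15 in the mutants (0.91, SE 0.19, limma adjusted p = 0.0386), with the call ended under 5 of the 6 omissions. cnih4, which encodes an escort of membrane proteins out of the endoplasmic reticulum, rose at 1 of its probes from 7.52, 7.82 and 7.82 in wild type to 8.39, 8.55 and 8.86 in the mutants (0.88, SE 0.16, limma adjusted p = 0.0293), a call that ended under each omission of 1 array, and was at 0.44 at the other (limma adjusted p = 0.161). Calmodulin, the calcium sensor that regulates many channels, had 5 probes in 4 genes, all below 0 from -0.78 to -0.17, and none passed limma's adjusted threshold, calm1b and calm1a having an unadjusted p of 0.0138 and 0.0152. The olfactory neuron, macrophage and neutrophil lists had medians of -0.87, 1.05 and 1.69 in the same comparison, and their part in these differences was not tested. The olfactory neuron list holds the same cnga2 probe.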

How the data were processed

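Scanner tables of 6 arrays, deposited by the authors, hold a raw intensity and a local background per spot, with neither background subtraction nor normalization recorded per the file headers. RNA was labelled by in vitro transcription per the labels' protocols; scanner and spot software are not named there. A deposited table of a ratio per probe, centred by the authors on each probe's median, served as an alternative only.

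Each array has 19200 spots, 2765 of them blank. Intensities were divided by 100 to a pixel scale, as their ceiling of 6553500 shows. 1 unreadable spot was left out, and so were the 400 spots of a block read 1 row off on wild-type array 2 (r = 0.241 at its own position, 0.981 at 1 row off), which holds kcnb2a. Normexp with an offset of 50 (limma 3.58.1, R 4.3.3), averaging of 172 actin spots, removal of blank and control spots and quantile normalization gave 15885 probes. Of these 15611 exceeded the 95th percentile of blank spots on all 3 arrays of a group. lmFit and eBayes compared the groups on log2 intensity, 2-sided, with Benjamini-Hochberg adjustment over all probes tested and a threshold of 0.05. The script was tested on simulated data. Alternatives that treat the misread block as missing on that array alone, or move it back, were chosen after seeing the data. Fold changes understate those of faint probes because of the offset. The number of arrays limits the precision.

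Probe names came from the platform annotation, and updating through gene identifiers to GRCz12tu changed 0 symbols of the ion channel probes. Values on every array were planned for members past the threshold, for up to 20 by unadjusted p, for 1 per role and for faint members; they are given for all 29 members. Partner genes were named when past the threshold; kctd1, calmodulin and the other clic genes, and single marker genes, were chosen after their values were seen. Members, lists and settings were chosen with earlier results of these data known. Probe sequences were not used here, and cross-detection of duplicate genes was not tested.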

Additional observations from a re-analysis of the deposited data

How the results depend on the processing

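In 18 alternatives kcng4a and otop1 stayed below 0, with calls in 15 and 14 of them, and none of the 25 other tested ion channel genes passed in any alternative that measured it (lowest limma adjusted p = 0.107). For 5 of these 25, glra3, glra4b, gria2b, grin1a and grin1b, only 17 alternatives gave a value, since the filter on all 6 arrays removes them. All 747 calls among 15611 probes became 80 without both arrays numbered 2 and 247 to 598 when 1 array was left out. The 2 ion channel calls became 1 without both arrays numbered 2 and 0 to 2 when 1 array was left out (0 without mutant array 1 or mutant array 3, 1 without wild-type array 1 or wild-type array 3). The 6 partner calls became 0 without both arrays numbered 2 and 1 to 3 when 1 array was left out. Only the number 2 appears in the titles of both groups; with it as a replicate block the counts were 709, 2 and 4, and the partner calls of clic4 and shisa10.1 were lost. No other pairing of arrays is given by the labels. The authors' ratio table called 947 of 15560 probes and the same 2 ion channel genes, 505 of the 947 lower where 368 of 747 were.

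Differences near 0 changed sign in 10 genes, with no call before or after. Without both arrays numbered 2 they were -0.018 for cacna1c, -0.15 for chrna1 and 0.10 for grin1a. With median scaling glra3 was 0.048, and with the authors' table glra3 was 0.055 and gria2a 0.0025. When 1 array was left out, cacna1c ranged from -0.021 to 0.28, p2rx3a from -0.29 to 0.022, trpm7 from -0.38 to 0.088, glra4b from -0.0032 to 0.13 and chrna1 from -0.051 to 0.31. In the same way grin1a ranged from -0.26 to 0.022, cacng1a from -0.022 to 0.12, gria2a from -0.17 to 0.039, glra3 from -0.10 to 0.036 and trpc4apa from -0.045 to 0.11. The causes were not tested. Signal over background limits the glutamate and glycine receptor genes.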
